A study of Mus musculus with 18 samples.

Results

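The 49 DNA replication genes described here form a list of symbols that encode the proteins that license origins, unwind and copy DNA, supply nucleotides and refill the new strands with histones. All 49 were rows of the 23337-gene count table, and all 49 were among the 14892 genes that passed the expression filter in edgeR. Before a cell copies its DNA, the origin recognition complex (ORC), Cdc6 and Cdt1 load the ring-shaped Mcm2 to Mcm7 helicase onto origins. In S phase, Cdc45 and the GINS complex join that ring to form the active CMG helicase, primase and the polymerases copy the strands, and the sliding clamp Pcna holds the polymerases in place. Many of these genes are known targets of E2F transcription factors and are held low in cells that have left the cell cycle, as maturing heart muscle cells do.

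The cells were differentiated toward cardiomyocytes from mouse embryonic stem cells of the GLI1-FTA line, strain A2Lox.cre, in which doxycycline induces GLI1, a nuclear effector of Hedgehog signalling. Controls, labelled untreated, were harvested at day 5 (D5, 4 libraries), D6 (3 libraries), D8 (2 libraries) and D12 (2 libraries). GLI1 overexpression (OE) cells received 500 ng/ml doxycycline for 24 hours between D5 and D6, were washed, and were harvested at D6 (3 libraries), D8 (2 libraries) and D12 (2 libraries). Every library came from the same line, so the inducible cassette was shared by controls and OE cells. No control received doxycycline, so GLI1 and the drug cannot be told apart.

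Total counts ran from 18470785 to 26184339 per library. Gli1 itself averaged 909 ± 134 counts scaled to library size (CPM, SD, n = 3) in D6 OE cells and 14.0 ± 7.28 CPM (SD, n = 3) in D6 controls, and its group means lay between 0.855 and 1.19 CPM at D8 and D12. The labels do not say that replicates were separate cultures, so the tests weigh differences only against the spread of these libraries, which may be technical. D5 control libraries 1 and 2 agreed more closely than any other pair of D5 libraries but differed by more than sampling noise, with a mean chi-square of 7.17 per gene, and were kept as 2 libraries. The D5 columns are named in another form than those of the later days, so any difference in how D5 was handled and the day itself cannot be told apart. All 15 cardiomyocyte markers and all 12 cardiac progenitor markers of the lists used here had counts in every group. Summed cardiomyocyte markers differed widely between libraries of 1 group, from 1759 to 5689 CPM at D5, from 8170 to 18930 CPM in D8 controls and from 1573 to 16050 CPM in D8 OE cells.

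The promoters of Mcm5, Mcm6 and Pola1 are shown because they carry an E2F motif and hold no exon of any gene in the GENCODE M21 annotation. Each window is the 250 bases before the transcription start in the RefSeq table on GRCm38.p6, written 5′ to 3′ on the strand of the gene, with the motif in capitals. They are Mcm5 at chr8:75109259-75109508 (plus strand), Mcm6 at chr1:128359706-128359955 (minus strand) and Pola1 at chrX:93632156-93632405 (minus strand).
Mcm5: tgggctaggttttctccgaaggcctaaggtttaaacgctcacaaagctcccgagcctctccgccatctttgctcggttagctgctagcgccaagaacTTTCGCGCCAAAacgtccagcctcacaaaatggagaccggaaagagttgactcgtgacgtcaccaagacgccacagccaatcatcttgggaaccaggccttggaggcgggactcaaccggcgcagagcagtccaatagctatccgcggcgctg
Mcm6: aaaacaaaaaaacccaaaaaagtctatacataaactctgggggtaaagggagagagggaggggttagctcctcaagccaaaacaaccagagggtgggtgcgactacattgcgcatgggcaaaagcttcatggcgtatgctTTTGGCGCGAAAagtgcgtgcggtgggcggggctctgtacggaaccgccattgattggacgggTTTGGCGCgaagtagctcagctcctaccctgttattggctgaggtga
Pola1: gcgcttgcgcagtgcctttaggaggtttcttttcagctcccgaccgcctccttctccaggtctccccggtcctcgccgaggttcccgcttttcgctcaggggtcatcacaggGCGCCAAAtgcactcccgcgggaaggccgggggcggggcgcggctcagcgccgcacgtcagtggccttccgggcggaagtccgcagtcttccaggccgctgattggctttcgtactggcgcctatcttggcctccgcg
The motif was searched as TTTCCCGC, TTTGGCGC, TTTCGCGC and TTTGCCGC on both strands. In Mcm5 a forward match and a reverse match overlap, the first starting 153 bases before the start. Mcm6 has such an overlapping pair from 110 bases and a further forward match 47 bases before the start, and Pola1 has 1 reverse match from 138 bases. RefSeq windows were matched for 40 of the 49 members, and Mcm4, Gins1, Gins2, Gins4, Rfc2, Pole, Prim2, Gmnn and Tipin were not matched. The E2F motif was found in 8 of the 40 (20%), against 2.16% of the 27025 genes with a window. The other 5 were Cdc6, Orc1, Mcm7, Gins3 and Rfc3, whose windows overlap annotated exons in GENCODE M21 and are not printed. The CCAAT box, searched as CCAAT on both strands, was found in 24 of the 40 (60.0%) against 37.5% of all genes, and the CHR element TTTGAA in 5 of the 40 (12.5%) against 18.3%. The shares for all genes cover every gene with a window. They were not limited to genes that passed the expression filter, as all members did. A match describes letters in this window and is not a measured binding site.

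At D5, before any treatment, levels can be compared between genes through the TPM values the authors deposited, which are scaled to transcript length and library size. Pcna was highest at 465 ± 88.3 TPM (SD, n = 4), with 412, 368, 544 and 536 TPM in replicates 1 to 4. Rrm2, the small subunit of ribonucleotide reductase, followed at 321 ± 90.2 TPM, and its partner Rrm1 had 176 ± 20.9 TPM. Pcna was above Rrm2 in each of the 4 libraries. The 6 genes of the MCM ring had similar levels, from 134.5 ± 22.8 TPM for Mcm5 to 244 ± 34.8 TPM for Mcm7. Within a library the highest of the 6 was 1.73 to 1.89 times the lowest. Mcm6, Mcm2 and Mcm4 had close means of 164, 158 and 157 TPM. Mcm6 was above Mcm4 in each library, at 154.5, 143.1, 187.9 and 171.3 against 148.9, 139.0, 173.7 and 167.7 TPM. The order of Mcm2 against either gene changed between libraries, and these differences were not tested. The loader Cdc6 was much lower at 30.3 ± 9.71 TPM, as were the polymerase epsilon catalytic subunit Pole at 27.0 ± 6.16 TPM, Orc1 at 25.5 ± 6.21 TPM and Gins3 at 15.5 ± 3.65 TPM, the lowest of the 49.

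**Figure D1:**
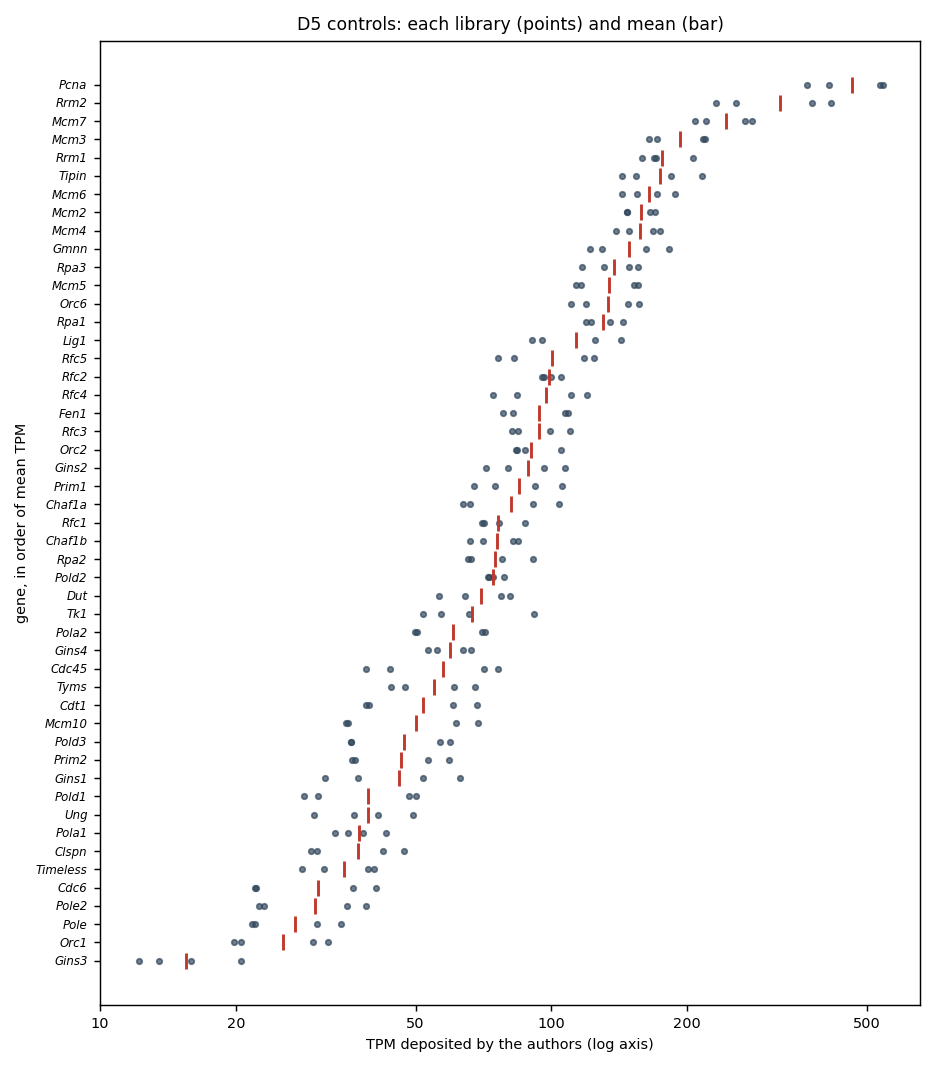
Deposited TPM of the 49 genes in the 4 D5 control libraries on a log axis, genes in order of their mean. Points are libraries and the upright bar is the mean, which runs from 15.5 TPM for Gins3 to 465 TPM for Pcna, with the 6 MCM ring genes between 134.5 and 244 TPM.

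The share of all counts held by the 49 genes was highest at D6 and lowest at D12. They held 0.494 ± 0.0816% of counts at D5 (SD, n = 4), 0.573 ± 0.0338% in D6 controls (n = 3), 0.374 ± 0.0258% in D8 controls (n = 2) and 0.153 ± 0.0277% in D12 controls (n = 2). In OE cells the share was 0.603 ± 0.0454% at D6 (n = 3), 0.411 ± 0.113% at D8 (n = 2) and 0.193 ± 0.0202% at D12 (n = 2). In bulk RNA, fewer replicating cells and less RNA per cell cannot be told apart. Changes below are from 1 edgeR quasi-likelihood fit to all 18 libraries with p-values adjusted over all 14892 genes, called under 0.05, with log2 fold changes ± SE. Per-library CPM are given in library-number order: D5 controls 1, 2, 3 and 4, D6 controls 3, 11 and 15, D6 OE 4, 12 and 16, D8 controls 13 and 17, D8 OE 14 and 18, D12 controls 9 and 19, and D12 OE 10 and 20.

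**Figure D2:**
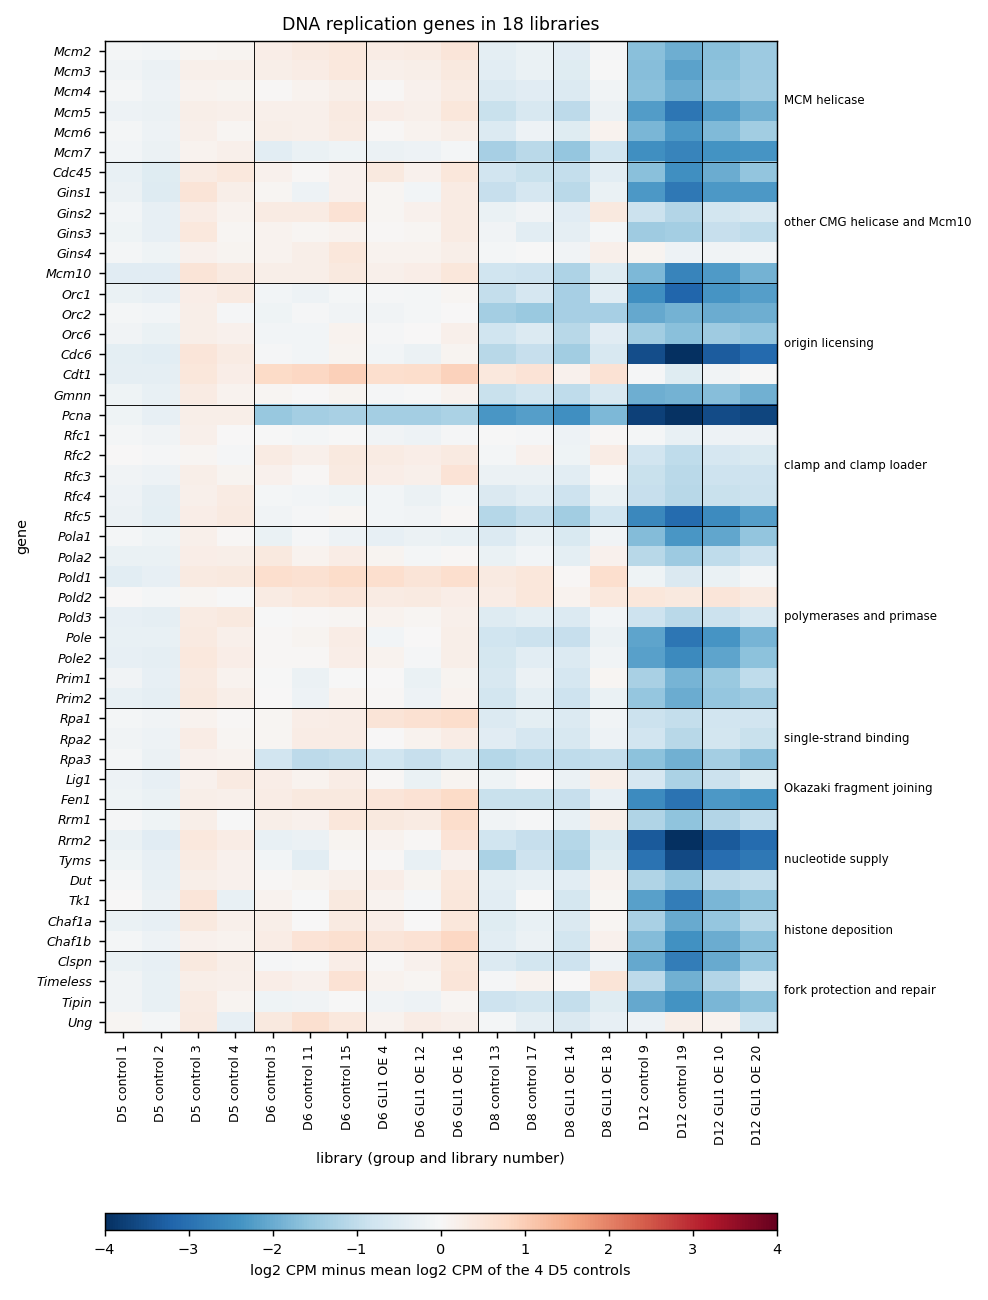
Log2 CPM of each member (rows, grouped by role) in each of the 18 libraries (columns), minus its mean over the 4 D5 controls. Most rows are blue at D12 and pale at D6, Pcna is already blue at D6, and Pold2 is pale red in every later group.

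From D5 to D12 in control cells, 43 of the 49 members fell and 1 rose, with a median log2 fold change of -1.81, or 3.5-fold lower. Of all genes tested, 34.3% fell and 32.2% rose in that comparison, and their median was -0.04. The falls reached every role, and 5 members were not called: Gins4, Cdt1, Rfc1, Pold1 and Ung. The count was 44 to 45 members called when any 1 of the 6 D5 and D12 control libraries was left out. Beside this fall, summed cardiomyocyte markers were 1759 to 5689 CPM at D5 and 6730 to 15780 CPM in D12 controls (6 of 15 rose and 0 fell). Summed cardiac progenitor markers overlapped, at 647 to 1086 and 692 to 901 CPM, while 7 of 12 fell and 1 rose. Summed markers of smooth muscle and fibroblasts were 3187 to 7525 CPM at D5 and 16690 to 17300 CPM in D12 controls (7 of 12 rose and 1 fell). Summed endothelial markers were 80.1 to 348 CPM at D5 and 560 to 741 CPM in D12 controls (9 of 10 rose), and summed neural markers 557 to 897 and 255 to 284 CPM (all 5 tested of the 10 listed fell). The part of these cell types in the members' fall was not tested.

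All 6 genes of the MCM ring fell, by 3.5- to 5.91-fold. Mcm2 had 226, 223, 255 and 263 CPM at D5, 291, 311 and 326 CPM in D6 controls, 183 and 198 CPM in D8 controls and 76.1 and 62.1 CPM in D12 controls. No D12 library reached the level of any earlier day, and the log2 fold change from D5 was -1.81 ± 0.14. Mcm7 had 234, 216, 284 and 294 CPM at D5 and 46.4 and 40.5 CPM at D12, a change of -2.56 ± 0.20. Mcm5 had 183, 175, 245 and 239.9 CPM at D5 and 44.4 and 27.9 CPM at D12, a change of -2.54 ± 0.25. The changes of Mcm3, Mcm4 and Mcm6 were -1.91, -1.82 and -2.06. Exons of Mcm7 overlap Cops6 and Ap4m1 on the other strand in the GENCODE M21 annotation, and whether the authors counted by strand is not given in the sources used here.

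Of the other helicase genes, 5 of 6 fell. Gins1, a GINS subunit, changed by -2.61 ± 0.33, and Mcm10, which helps activate the helicase, by -2.23 ± 0.33. Cdc45, the third component of the CMG complex, changed by -2.05 ± 0.29. Among the other GINS genes, whose differences from each other were not tested, Gins3 and Gins2 fell by 1.41 and 1.03 on the log2 scale. Gins4, which encodes the remaining subunit, had 35.1, 32.7, 41.5 and 39.97 CPM at D5 and 40.3 and 32.1 CPM at D12, with overlapping groups and a log2 fold change of -0.04 ± 0.13.

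Among the licensing genes, 5 of 6 fell. Cdc6, which loads the MCM ring, had the largest estimated fall of the 49: it had 46.3, 45.1, 85.5 and 76.2 CPM at D5, 59.0, 56.8 and 65.6 CPM in D6 controls, 28.0 and 31.8 CPM in D8 controls and 5.20 and 2.599 CPM in D12 controls. Both D12 libraries lay below every earlier library, 16.2-fold below D5 (log2 fold change -4.02 ± 0.37, edgeR adjusted p = 4.49e-07). Its SE is larger than its gap to Pcna, and without D12 control library 19 the change of Cdc6 was -3.62 and that of Pcna -3.77. Orc1, the ORC subunit whose level varies with the cell cycle, changed by -2.80 ± 0.30, Orc2 by -1.98 ± 0.11 and Orc6 by -1.54 ± 0.20. Gmnn, which encodes the Cdt1 inhibitor geminin, changed by -1.93 ± 0.17. Its partner Cdt1 rose before it fell: it had 39.5, 39.6, 69.8 and 62.0 CPM at D5, 87.0, 90.9 and 99.7 CPM at D6, 68.3 and 74.2 CPM at D8 and 49.8 and 36.8 CPM at D12 in controls. The D5 and D12 groups overlapped, and that difference was not called (-0.29 ± 0.22).

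Pcna fell 14.6-fold from D5 to D12 (log2 fold change -3.87 ± 0.22, edgeR adjusted p = 4.8e-09). The genes of its clamp loader had changes of different size, and these differences between genes were not tested. Rfc5 fell 7.13-fold, Rfc2, Rfc3 and Rfc4 fell 1.84-, 1.97- and 2.07-fold, and Rfc1, the large subunit, had 153, 149, 187 and 165 CPM at D5 and 154 and 132 CPM at D12. These Rfc1 groups overlapped (log2 fold change -0.19 ± 0.10). Wsb2, Eif4a2 and Lat2 overlap exons of Rfc5, Rfc4 and Rfc2 on the other strand, and Pcna and Tyms have annotated pseudogenes to which short reads could be assigned. In all, 15 of the 49 members have exons that overlap those of a gene on the other strand. For 12 of these that gene is protein-coding, as for Fen1 (Tmem258) and Tk1 (Afmid).

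Of the 9 polymerase and primase genes, 7 fell, 1 rose and 1 was not called. The epsilon genes Pole and Pole2 changed by -2.48 ± 0.29 and -2.39 ± 0.27. The alpha-primase genes Pola1, Prim2, Prim1 and Pola2 fell by 2.01, 1.78, 1.57 and 1.28 on the log2 scale. Of the delta genes, Pold3 fell by 0.98, while the catalytic subunit Pold1 was not called at -0.41 ± 0.23. Pold2, the second delta subunit, had 54.6, 52.0, 57.7 and 53.3 CPM at D5, 67.8, 73.2 and 76.3 CPM at D6, 67.2 and 74.9 CPM at D8 and 74.4 and 71.9 CPM at D12 in controls. Every later library was above all 4 D5 libraries, and Pold2 rose 1.34-fold by D12 (log2 fold change 0.43 ± 0.09, edgeR adjusted p = 0.000799).

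The 3 subunits of RPA, which coats single-stranded DNA, all fell: Rpa1 by 0.91, Rpa2 by 0.93 and Rpa3 by 1.79 on the log2 scale. Fen1, the nuclease that trims Okazaki fragments, fell 6.63-fold, and Lig1, the ligase that seals them, fell 1.96-fold. All 5 nucleotide-supply genes fell, and their median change of -2.48 was the most negative of the 10 roles. Rrm2 had 255, 226, 413 and 375 CPM at D5, 252, 261 and 334 CPM in D6 controls, 179 and 164 CPM in D8 controls and 30.2 and 16.9 CPM in D12 controls, a 13.5-fold fall from D5 (-3.75 ± 0.34, edgeR adjusted p = 3.55e-07). Its partner Rrm1 fell 2.63-fold. Thymidylate synthase (Tyms) fell 9.57-fold, thymidine kinase (Tk1) 5.57-fold and the dUTPase Dut 2.61-fold.

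The histone-depositing CAF-1 subunits Chaf1b and Chaf1a fell 4.11- and 3.14-fold. Of the genes that protect forks, Clspn fell 5.22-fold, Tipin 4.70-fold and Timeless 2.72-fold. Ung, the uracil-DNA glycosylase, had 35.9, 31.8, 43.4 and 26.8 CPM at D5 and 29.8 and 39.9 CPM at D12 in controls, with overlapping groups (log2 fold change 0.02 ± 0.22). Members with an E2F motif in the window above had a median change of -2.30 (n = 8, -4.02 to -0.98), and matched members without it a median of -1.61 (n = 32, -3.87 to 0.43). These ranges overlapped, and no test was made between them.

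**Figure D3:**
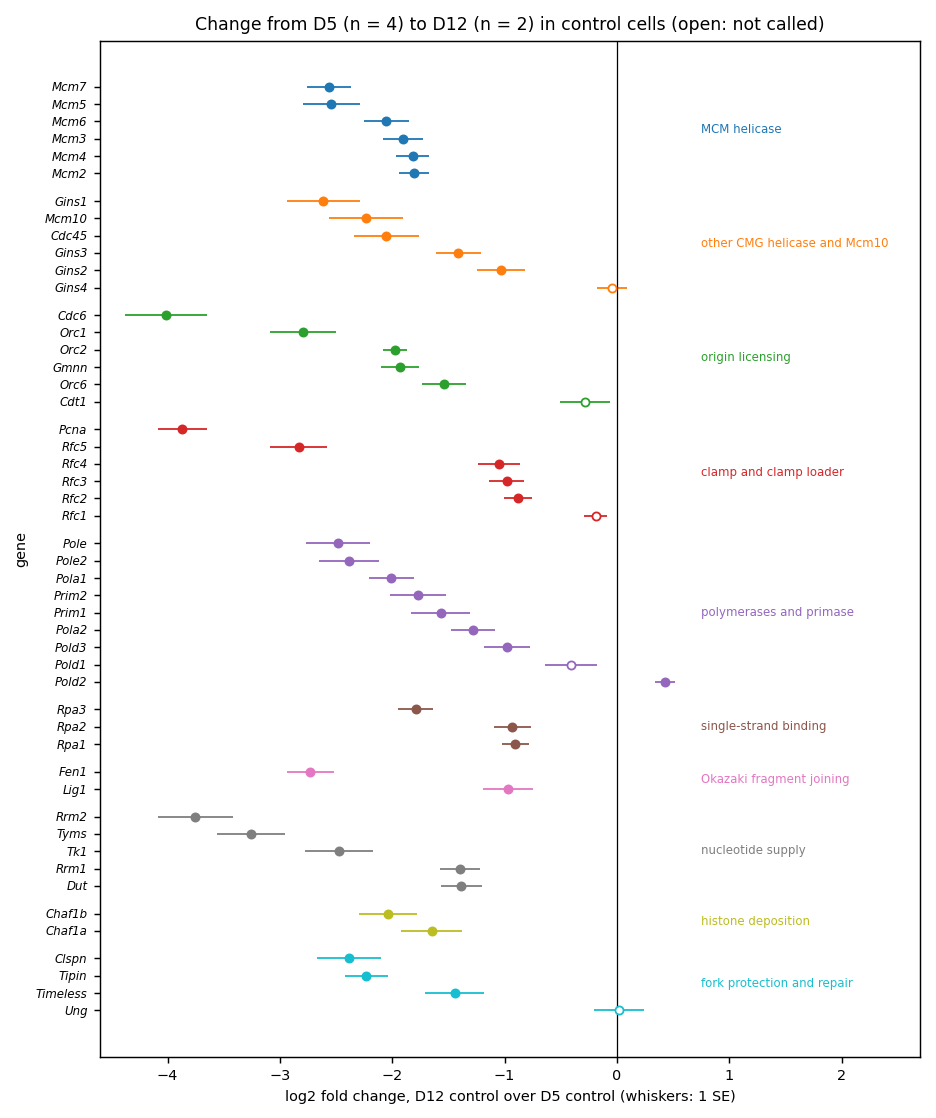
Log2 fold change of each member from D5 controls (n = 4) to D12 controls (n = 2) with 1 SE, coloured by role. Filled points were called and open points were not, and Cdc6, Pcna and Rrm2 lie farthest to the left while Pold2 is the filled point to the right of 0.

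From D5 to D6 in controls, few members moved: 4 rose and 2 fell, or 12.2% of the members against 18.4% of all genes tested. Pcna had 183, 164, 242 and 239.5 CPM at D5 and 71.7, 78.7 and 83.8 CPM in D6 controls, so that every D6 library was less than the lowest D5 library. It fell 2.65-fold (-1.41 ± 0.16, edgeR adjusted p = 2.43e-05). Rpa3, the smallest RPA subunit, had 38.6, 34.1, 45.8 and 44.1 CPM at D5 and 24.0, 19.7 and 20.5 CPM at D6, again with no overlap, and fell 1.90-fold (-0.93 ± 0.13, adjusted p = 0.000175). Cdt1 rose 1.76-fold (0.81 ± 0.19, adjusted p = 0.00846) and Pold2 rose 1.33-fold (0.41 ± 0.08, adjusted p = 0.00251). Pold1 rose 1.54-fold (0.63 ± 0.20, adjusted p = 0.0422) and Mcm2 1.28-fold (0.36 ± 0.11, adjusted p = 0.0341). With D5 libraries 1 and 2 summed, the Pold1 and Mcm2 calls were lost (adjusted p = 0.105 and 0.0885). With the replicate block that pairs adjacent library numbers, the Pold1 call was lost (adjusted p = 0.0716), and in a fit of the D5 and D6 controls alone as well (adjusted p = 0.107). Both calls were lost without D5 library 1 or 2 or D6 control library 11 or 15, and Pold1 without D6 control library 3 as well. The other MCM genes were not called, with changes between -0.30 for Mcm7 and 0.30 for Mcm3.

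The 4 D5 libraries were themselves unequal. Members were lower in library 1 than in library 3 for 49 of 49 genes, with a median log2 difference of -0.41, and libraries 1 and 2 had 5689 and 5427 CPM of summed cardiomyocyte markers against 1759 and 2700 CPM in libraries 3 and 4. The part of cell makeup in the D5 to D6 values was not tested.

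From D6 to D8 in controls, 26 members fell and none rose by edgeR (35 had an unadjusted p under 0.05, against 45.7% of all genes, and DESeq2 and limma-voom called 30 and 26 in all). Of all genes tested, 17.5% fell, and the median was -0.64 for the members and 0.00 for all genes. All 6 MCM genes fell, by 1.53- to 2.02-fold. Orc2 had the largest fall: it had 121, 131 and 123 CPM at D6 and 52.8 and 48.2 CPM at D8, a 2.48-fold difference (-1.31 ± 0.11, edgeR adjusted p = 9.69e-06). Exons of Orc2 overlap Nif3l1 on the other strand. Fen1 had 115, 124 and 124 CPM at D6 and 51.0 and 50.6 CPM at D8 and fell 2.38-fold (-1.25 ± 0.20, adjusted p = 0.000374). Mcm10 fell 2.14-fold (-1.10 ± 0.32, adjusted p = 0.0173), a call that was lost without either D8 control, where its change was -1.13 and -1.08. Pcna fell a further 1.84-fold, to 40.6 and 44.5 CPM.

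For 45 of the 49 members both D8 controls lay below all 3 D6 controls, as they did for 32.1% of all genes. The count of members called depended on single libraries. It was 17 without D6 control library 15, 9 without D8 control library 13 and 16 without D8 control library 17. Without D8 control library 13, Mcm3, Mcm5 and Mcm6 were among the calls lost, and Mcm6 was also lost without D6 control library 15 (adjusted p = 0.0577). The median log2 change stayed between -0.69 and -0.55 in these fits and those without the other libraries.

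From D8 to D12 in controls, 42 members fell and none rose by edgeR (43 had an unadjusted p under 0.05, against 46.4% of all genes, and DESeq2 and limma-voom each called 42). Of all genes tested, 19.4% fell, and the median was -1.24 for the members and -0.04 for all genes. Every MCM gene fell, by 2.48- to 3.39-fold. Cdc6 fell 7.64-fold (-2.93 ± 0.37, edgeR adjusted p = 8.73e-05) and Rrm2 fell 7.28-fold (-2.86 ± 0.34, adjusted p = 5.34e-05). Tk1 had 29.6 and 39.1 CPM in D8 controls and 8.79 and 5.83 CPM in D12 controls and fell 4.70-fold (-2.23 ± 0.32, adjusted p = 0.000194). Pcna fell a further 3.0-fold, to 15.3 and 13.0 CPM. The count was 29 to 40 with any 1 of the 4 D8 and D12 control libraries left out. Beside this step, summed smooth muscle and fibroblast markers were 4150 and 7142 CPM in D8 controls and 16690 and 17300 CPM in D12 controls. Summed neural markers were 569 and 574 CPM and 284 and 255 CPM. Summed cardiomyocyte markers overlapped, at 8170 to 18930 CPM and 6730 to 15780 CPM. The part of these in the step was not tested.

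By these calls, 24 members fell in both intervals, 18 were called from D8 to D12 alone, 2 from D6 to D8 alone, and 5 in neither. Of all genes tested, 17.5% fell from D6 to D8 and 19.4% from D8 to D12. The share of all genes with each of these patterns was not computed. The difference between the intervals was not tested. Rrm2 and Tk1 were among the 18, with log2 changes of -0.72 and -0.39 from D6 to D8. Ung was one of the 2, at -0.70 from D6 to D8 and 0.25 from D8 to D12, and Rpa2 was the other, at -0.79 and -0.35.

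**Figure D4:**
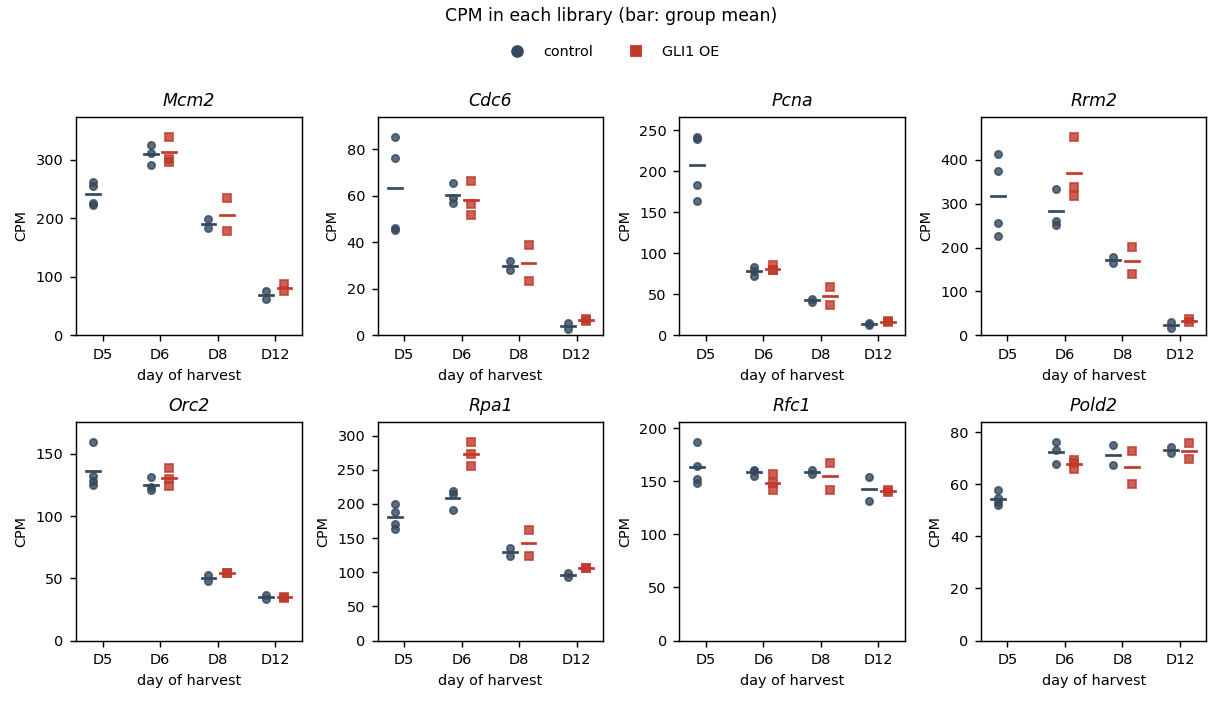
CPM of 8 members in every library by day of harvest, with round points for controls, square points for GLI1 OE and short bars for group means. Pcna drops between D5 and D6 and Orc2 between D6 and D8, Cdc6 and Rrm2 are lowest at D12, Rfc1 and Pold2 stay near their D6 levels, and Rpa1 is higher in the 3 D6 OE libraries than in the 3 D6 controls.

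Other gene lists were set beside the members. Of the 36 other replication genes, 35 were in the table, 31 fell and 1 rose from D5 to D12 in controls (median -1.31). Pole4, an accessory subunit of polymerase epsilon, fell by 2.07 on the log2 scale and Dck, a nucleoside kinase, by 2.41. Pold4, the small accessory subunit of polymerase delta, rose by 3.24, from 5.80 to 55.0 CPM. Of the 22 E2F and RB genes, 17 fell and 3 rose. Over that span in controls, 34.3% of all genes tested fell and 32.2% rose. Cyclin E2 (Ccne2) fell by 4.09 and the E2F partner Tfdp1 by 2.80, while the pocket protein gene Rbl2, whose product binds E2F in resting cells, rose by 3.57, from 5.89 to 69.8 CPM. Of 16 mitosis genes, 15 fell from D8 to D12 in controls, against 19.4% of all genes. None was called from D6 to D8 in controls by edgeR (2 had an unadjusted p under 0.05, against 45.7% of all genes, median -0.29). In OE cells, 3 of the 16 fell from D6 to D8, against 19.8% of all genes. From D8 to D12 in OE cells, 9 of the 16 fell, against 17.5% of all genes. Whether the timing differed between the mitosis genes and the members was not tested.

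At D6, at the end of the GLI1 pulse, none of the 49 members was called between OE and control cells, while 4.14% of all genes tested were called. By edgeR 1 member had an unadjusted p under 0.05 (15.8% of all genes did), DESeq2 called 1 and limma-voom called none. The median log2 fold change was 0.03, with 29 estimates above 0 and 20 below. The member nearest to a call was Rpa1, the large RPA subunit. It had 256, 273 and 291 CPM in the OE libraries and 192, 215 and 219 CPM in the controls, so the groups did not overlap. The mean was 1.31-fold higher in OE cells (0.39 ± 0.11, edgeR adjusted p = 0.0586). With the replicate block the adjusted p was 0.0385, in a fit of the D6 groups alone 0.024, and in DESeq2 0.0125. With 1 library left out it ran from 0.0769 to 0.242 and Rpa1 was not called. In the authors' deposited table for D6, Rpa1 was the only 1 of the 49 members with an adjusted p under 0.05 (log2 fold change 0.40, adjusted p = 0.00087), where 1946 of 15456 genes had one.

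The other D6 estimates were further from a call. Fen1 had 132, 140.2 and 160.1 CPM in OE cells and 115, 124 and 124 CPM in controls (0.25 ± 0.17, adjusted p = 0.538). Pola2 and Ung were lower in OE cells, at -0.26 ± 0.17 and -0.28 ± 0.21 (adjusted p = 0.547 and 0.598). The groups did not overlap for 4 members that were higher and 3 that were lower in OE cells, against 13.2% and 13.8% of all genes. The 6 MCM genes had estimates between -0.11 and 0.12, and Pcna 0.06 ± 0.17. Beside these values, summed cardiomyocyte markers were 1740, 5378 and 1852 CPM in OE libraries and 5114, 12240 and 8010 CPM in controls. Summed endoderm markers were 97.7 to 121 CPM in OE libraries and 5.36 to 7.58 CPM in controls, without overlap. Cardiac progenitor sums were 496 to 597 and 654 to 725 CPM, and smooth muscle and fibroblast sums 3259 to 4939 and 5246 to 6730 CPM. Those sums did not overlap either, but not every gene followed them. In each of these lower lists, 1 of 12 genes was called higher in OE cells and 0 lower. The part of these in the result was not tested.

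At D8, 2 days after washout, no member was called, and no gene of the 14892 (0%) was called either. By edgeR 0 members had an unadjusted p under 0.05 (5.95% of all genes did), and DESeq2 and limma-voom called 0. The median log2 fold change was 0.10. Fen1 was at 0.31 ± 0.21 (adjusted p = 0.883) and Dut at 0.23 ± 0.19 (adjusted p = 0.918). Ung was at -0.24 ± 0.26 and Pold2 at -0.10 ± 0.11. The groups did not overlap for 2 members that were higher in OE cells, against 17% of all genes. They did so for 0 members that were lower, where the share of all genes is not given here.

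The 2 D8 OE libraries lay on either side of the controls. Library 18 was above library 14 for 48 of 49 members, with a median log2 difference of 0.54. Against controls 13 and 17 it was higher for 48 members each, with medians of 0.40 and 0.29. Library 14 was lower than those controls for 42 and 45 members, with medians of -0.14 and -0.26. Fen1, for example, had 50.0 and 75.6 CPM in OE libraries 14 and 18 against 51.0 and 50.6 CPM in the controls. Summed cardiomyocyte markers were 16050 CPM in library 14 and 1573 CPM in library 18, against 18930 and 8170 CPM in controls 13 and 17, and their part in the spread was not tested. The median effect was -0.20 without library 18 and 0.31 without library 14.

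At D12 no member was called, and again no gene (0%) was called. By edgeR 3 members had an unadjusted p under 0.05 (5.64% of all genes did), and DESeq2 and limma-voom called 0. Estimates were above 0 for 45 of 49 members, with a median of 0.27, against 49% of all genes and a median of 0.00. The groups did not overlap for 26 members, all higher in OE cells (against 17.9% of all genes), and for 0 members that were lower. The share of all genes that were lower without overlap is not given here. Members share libraries and tend to move together, so these counts are not independent observations.

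Tipin, which stabilizes forks with Timeless, had 26.9 and 30.3 CPM in OE cells and 22.9 and 18.2 CPM in controls (0.47 ± 0.20, edgeR adjusted p = 0.836). Mcm6 had 63.5 and 81.5 CPM and 60.8 and 43.5 CPM (0.48 ± 0.21, edgeR adjusted p = 0.854). The other 5 MCM genes were at 0.19 to 0.46, and Pcna, with 17.2 and 16.0 CPM in OE cells and 15.3 and 13.0 CPM in controls, was at 0.23 ± 0.21. Cdc6 had the highest estimate, with 6.08 and 7.11 CPM in OE cells and 5.20 and 2.599 CPM in controls (0.76 ± 0.37). Ung and Gins4 were lower in OE cells, at -0.26 ± 0.26 and -0.10 ± 0.15.

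The 2 D12 controls differed from each other. Control 9 was above control 19 for 45 of 49 members (median log2 difference 0.40). OE libraries 10 and 20 had medians of 0.43 and 0.59 against control 19 and of 0.04 and 0.16 against control 9. With 1 library left out, the median effect ran from 0.10 to 0.51. Summed cardiomyocyte markers were 6730 and 15780 CPM in controls 9 and 19 and 8472 and 3843 CPM in OE libraries 10 and 20, and their part was not tested. The summed mitosis genes were 1648 and 1053 CPM in the controls and 1331 and 1799 CPM in the OE libraries.

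**Figure D5:**
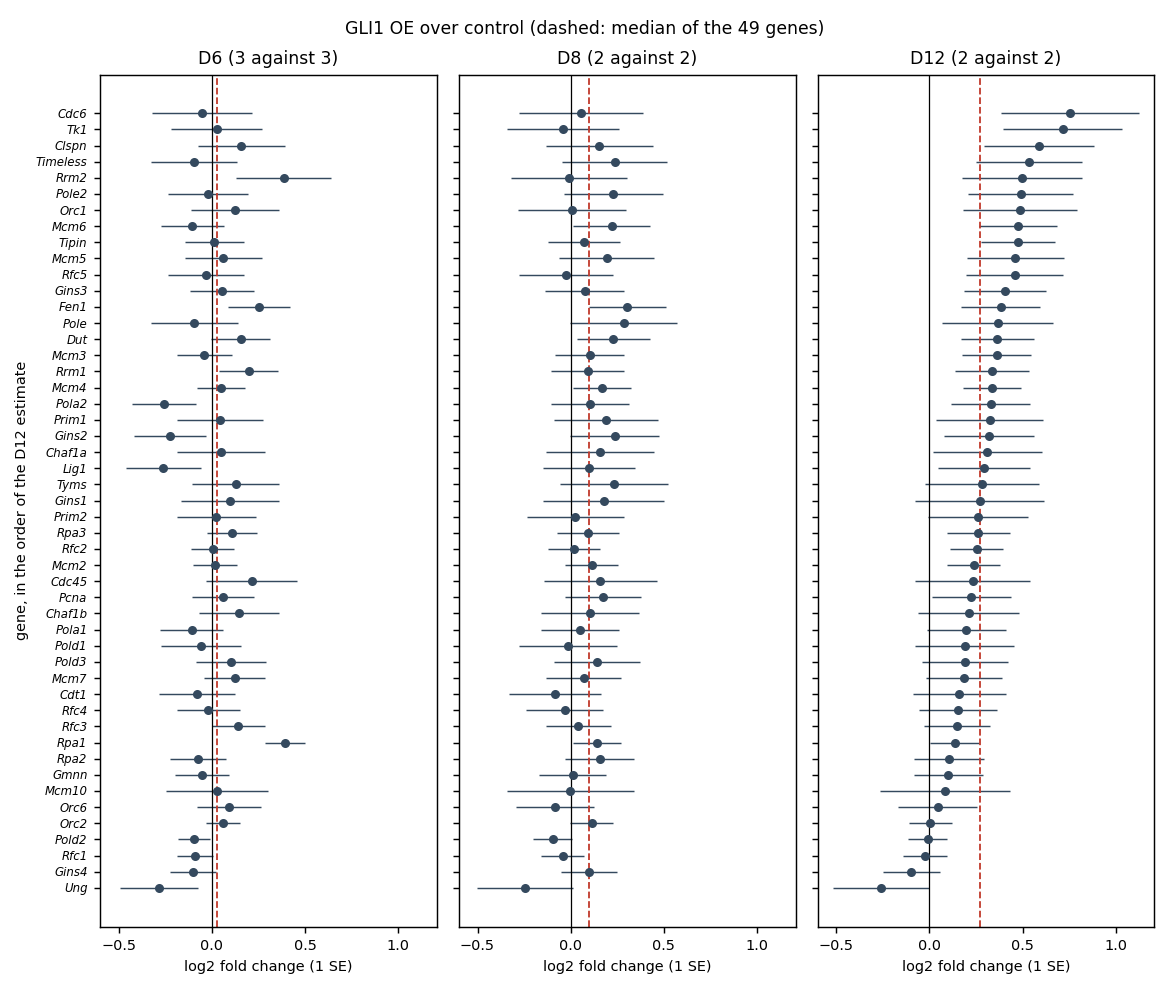
Log2 fold change of GLI1 OE over control for each member at D6 (3 against 3 libraries), D8 (2 against 2) and D12 (2 against 2), with 1 SE and the median of the 49 as a dashed line. Medians were 0.03, 0.10 and 0.27, and no member was called on any day.

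In the authors' deposited tables for D8 and D12, 0 of the 49 members had an adjusted p under 0.05, with 38 and 46 log2 fold changes above 0. Of all genes in those tables, 11 of 15138 and 78 of 14917 had one. Sizes of change that could be seen were limited. On data simulated from these libraries, edgeR recovered 0% of genes changed 1.25-fold on each day. It recovered 28%, 8% and 10% of genes changed 1.5-fold at D6, D8 and D12, and 72%, 70% and 68% of genes changed 2-fold. The changed genes were drawn from all genes within the members' range of mean CPM, and genes varied independently. Rates for the members, which move together, may differ. The absence of calls therefore does not show that levels were equal.

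The members also fell with time in OE cells. From D6 to D8, 25 members fell and none rose by edgeR (28 had an unadjusted p under 0.05, against 48.7% of all genes, and DESeq2 and limma-voom called 26 and 25), against 19.8% of all genes that fell. Orc2, with 124, 129 and 138 CPM at D6 and 54.6 and 54.5 CPM at D8, had the largest fall, 2.40-fold (-1.26 ± 0.11, adjusted p = 7.22e-06). Fen1 fell 2.30-fold (-1.20 ± 0.19, adjusted p = 0.000383) and Mcm10 2.18-fold (-1.12 ± 0.32, adjusted p = 0.0134). The count was 16 in a fit of those groups alone, 16 without D6 OE library 16 and 5 without D8 OE library 14, where the Mcm10 call was lost (adjusted p = 0.143). Of the falls, 21 were shared with controls, 80.8% of the control calls and 84% of the OE calls. The overlap over all genes was not computed, so whether these shares are particular to the members is not known.

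From D8 to D12 in OE cells, 40 members fell and none rose by edgeR (41 had an unadjusted p under 0.05, against 44% of all genes, and DESeq2 and limma-voom called 40 and 38), against 17.5% of all genes that fell. Rrm2 had 139 and 202 CPM at D8 and 30.2 and 36.2 CPM at D12 and fell 5.13-fold (-2.36 ± 0.33, adjusted p = 0.000214). Cdc6 fell 4.70-fold (-2.23 ± 0.36, adjusted p = 0.000474) and Tyms 4.43-fold (-2.15 ± 0.31, adjusted p = 0.000227). In a fit of those 4 libraries alone no gene was called, and these 3 members each had an adjusted p of 0.0524. The count was 24 without D8 OE library 18 and 26 without D12 OE library 10. All 40 were also called in controls, 95.2% of the control calls, and the 2 called in controls alone were Cdt1 and Pold1. Here too, the overlap over all genes was not computed.

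The difference in GLI1 OE effect between days was tested directly. No member was called between D8 and D6, D12 and D6, or D12 and D8, against 0.631%, 0.604% and 0% of all genes. By edgeR 0, 1 and 0 members had an unadjusted p under 0.05, against 7.02%, 8.88% and 2.38% of all genes, and DESeq2 and limma-voom called 0 in each. The smallest p was that of Pola2 between D12 and D6 (0.59 ± 0.27, adjusted p = 0.561), with Mcm6 next (0.58 ± 0.27, adjusted p = 0.561). In that comparison the lower estimates with the smallest p were those of Rpa1 (-0.26 ± 0.17, adjusted p = 0.755) and Orc2 (-0.06 ± 0.15, adjusted p = 0.967). Between D8 and D6 they were Gins2 (0.46 ± 0.31, adjusted p = 0.912) and Pola2 (0.36 ± 0.27, adjusted p = 0.937) among the higher, and Rpa1 (-0.25 ± 0.17, adjusted p = 0.914) and Rrm2 (-0.39 ± 0.40, adjusted p = 0.98) among the lower. Between D12 and D8 they were Tk1 (0.75 ± 0.44) and Tipin (0.40 ± 0.28) among the higher, and Gins4 (-0.20 ± 0.21) and Orc2 (-0.11 ± 0.16) among the lower, each with an adjusted p of 1.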

How the data were processed

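PolyA RNA of 18 libraries was sequenced as single-end reads of 50 bases, stranded per the labels. The authors deposited raw read counts per gene symbol, and every test rests on these counts as deposited. TPM values for the 4 D5 controls were also deposited by the authors and were used only to set levels side by side between genes. The log2 fold changes and adjusted p-values in the authors' deposited tables for D6, D8 and D12 were read only beside the values computed here. In the D6 table the mean normalized signal and the test score that the authors deposited entered no result. The aligner, the counting program, its strand setting and the genome build are not given in the sources used.

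Counts were fitted in R 4.3.3 with edgeR 4.0.16: minimum count of 10 in the expression filter, TMM scaling, a robust quasi-likelihood model with 7 group coefficients, and Benjamini-Hochberg adjustment over 14892 genes within each of 12 contrasts. SE is the log2 fold change divided by the square root of F. Alternatives were RLE size factors, DESeq2 1.42.0, limma-voom (limma 3.58.1), a filter of 50 counts in 2 libraries or none, only the groups compared, a replicate block, and each library left out. The count columns are numbered by library and not by replicate, so the block took adjacent numbers of control and OE libraries. Their deviations from group means correlated at 0.617, 0.445 and 0.52 in the 3 D6 pairs, each best with its own neighbour, at 0.491 in the D8 pairs and at -0.231 in the D12 pairs. In groups of 2 libraries the deviations mirror each other. Both pairs at D8, and both at D12, therefore must give the same value, and the crossed pairs its negative.

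The members and lists were chosen with earlier results of these data known. Members were given in full for the 3 largest calls in each direction, or for the 2 smallest p in each direction where none was called, with Pcna and the MCM genes always described; Cdc6, Gins4, Rfc1, Cdt1, Ung and the examples per role beyond these were chosen after their values were seen. From the other lists, up to 3 members with the smallest adjusted p were named. Promoter windows came from RefSeq (GRCm38.p6) and overlaps from GENCODE M21. The model was tested on simulated data with 14592 genes in the fit.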

Additional observations from a re-analysis of the deposited data

How the results depend on the processing

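Each count of members called was recomputed under each alternative that applied to it, and a library was left out only for comparisons that use its group. Of these recomputed counts, 148 lay within 1.5 times the reported count or were 0 where it was 0, and 12 did neither. Many of the 148 were such counts of 0, for the OE effects and their differences between days. No called value of a named member turned its direction. Small median OE effects, with no member called, changed sign when 1 library was left out: at D6 from 0.03 to -0.05 at the lowest, at D8 from 0.10 to -0.20 without OE library 18, for D8 against D6 from 0.05 to -0.23 without that library, and for D12 against D8 from 0.15 to -0.06 without D8 OE library 14. For GLI1 OE against control at D6 the count of 0 became 1 (Rpa1) with DESeq2, with only the groups compared and with the replicate block. With only the groups compared, the OE count was 16 from D6 to D8 and 0 from D8 to D12, where fewer libraries set the spread and no gene of the whole table was called. With 1 library left out, counts ran from 4 to 6 for D6 against D5 controls, 9 to 22 for D8 against D6 controls, 29 to 40 for D12 against D8 controls and 44 to 45 for D12 against D5 controls. In OE cells they ran from 5 to 33 for D8 against D6 and from 24 to 39 for D12 against D8. They were 0 in each such fit for the OE effects and their differences between days. Where an arm was left with 1 library, that library was assumed to vary like the other groups. The cause of these shifts was not tested.

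The replicate block called 23 members for D8 against D6 controls, 40 for D12 against D8 controls, 44 for D12 against D5 controls, 23 and 39 for the OE steps, and 6 for D6 against D5 controls. Among named members it changed the calls of Rpa1 and Pold1 given above and no other. With the D12 pairs crossed, an alternative chosen after seeing the data, 0 members were called, as with adjacent numbers. Summing D5 libraries 1 and 2, also chosen after seeing the data, gave 4 members for D6 against D5 and 44 for D12 against D5. Of the recomputed values of named members, 1158 had the same outcome as reported, called or not called. A call was lost in 23 and gained in 3. Values that were not called in either fit are among the 1158.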

Other observations

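Among the context genes, Pold4 and Rbl2 rose in both intervals after D6, in controls and in OE cells. Pold4, a small subunit of polymerase delta, averaged 5.80 CPM in D6 controls, 20.1 CPM in D8 controls and 55.0 CPM in D12 controls, with log2 changes of 1.79 ± 0.17 and 1.45 ± 0.19 (edgeR adjusted p = 1.85e-05 and 8.79e-05). In OE cells it averaged 5.14, 16.7 and 54.7 CPM on those days. Rbl2, which encodes the pocket protein p130, averaged 6.04, 29.9 and 69.8 CPM in controls, with log2 changes of 2.31 ± 0.22 and 1.23 ± 0.24 (adjusted p = 1.85e-05 and 0.00143), and 5.27, 22.8 and 67.8 CPM in OE cells. Both genes were singled out after their values were seen.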
